A study of Drosophila melanogaster with 4 samples.

Results

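The genes described here encode secreted or lysosomal hydrolases, many of them best known from the fly midgut: the Jonah proteases, the Greek-letter trypsins, the maltases of the A and B clusters, the LMan mannosidases and the amylases. The rule that picks them reads the symbol and no measured value, though it was set with earlier results of these data known, and 45 of the 17103 genes in the deposited table carried such a symbol. There were 16 Jonah proteases, 11 trypsins, 10 maltases, 6 mannosidases and 2 amylases. They were read in sorted gonads of 2 Phf7 mutant samples and 2 control samples. The mutants carried the allele Phf7[DN18] together with the vasGFP transgene, which labels germ cells, and the controls carried vas-GFP without the mutation. All embryos were at stage 17, were collected at 18 to 22 h and were kept at 25 °C. Whole GFP-positive gonads were sorted from homogenized embryos of mixed sex, so that the RNA came from germ cells and somatic cells together, and libraries were made from transcript 3′ ends.

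Jonah genes and trypsin genes encode serine endopeptidases of a shared fold, which cut dietary proteins in the gut lumen. Amylases split starch, maltases release glucose from the resulting oligosaccharides, and alpha-mannosidases remove mannose from glycans. In flies these enzymes are made in quantity by the midgut epithelium of feeding larvae and adults, and their genes are turned on as the midgut matures late in embryogenesis. Most of them lie side by side in clusters of related copies.

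No column of the deposited table held a single library, and the reads of each library were worked back from the printed mean counts, which succeeded for genes with a mean normalized count up to 1000. The libraries are called mutant a, mutant b, control a and control b, where a is the deeper library of its genotype and the letter carries no replicate number. The recovered genes held 1536698 to 2130832 reads per library. Phf7, a chromatin reader of the male germline and the mutated gene, had 9 reads in mutant a and 44 in mutant b, against 749 in control a and 495 in control b, so its level followed the genotypes. Its difference was -5.16 on the log2 scale (SE 0.835, n = 2 per genotype, adjusted p = 0.537 by limma over all genes tested). All 10 germ cell markers were detected, with authors' mean counts of 3599 for vas and 1540 for piwi. All 8 somatic gonad markers were detected as well. Detection means a mean count above 0, which 12679 of the 17103 genes in the deposited table reached. All 12 muscle and all 9 neuronal markers reached it too, so detection alone does not tell which tissue was sorted.

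Of the 45 digestive enzyme genes, 44 were detected, and gammaTry had a mean count of 0. The mean counts of these genes summed to 22749, or 0.213% of the total. Reads came from 3′ ends, so the counts were not divided by transcript length. The Jonah proteases held 19345 of that sum, the trypsins 2272, the maltases 445, the mannosidases 370 and the amylases 317. The most abundant were Jon25Biii with an authors' mean of 4416, Jon99Fii with 3907, Jon99Ciii with 2681, Jon99Cii with 2597, Jon99Fi with 2548 and alphaTry with 1121. Jon25Biii stood at the 97.8th percentile and alphaTry at the 89.8th percentile of detected genes. For these 6 genes only the mean over the 4 libraries was known. The other 38 detected genes had recovered reads, and 34 of them reached a mean normalized count of 10, the minimum set for testing.

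The genes also shared their arrangement on the genome (Ensembl gene models, in the coordinates of dm6). Arm 2R held 22 of them, 2L held 11, 3L held 7 and 3R held 5, and none lay on X. All 11 trypsin genes sat together on 2R between 11336840 and 11357537, and Mal-A1 to Mal-A8 lay on the same arm between 8449664 and 8473961. lambdaTry and kappaTry ended 5 bp apart with their 3′ ends facing each other. Mal-A2 and Mal-A3 faced each other at a distance of 126 bp. Amy-p and Amy-d were 4460 bp apart.

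**Figure D1:**
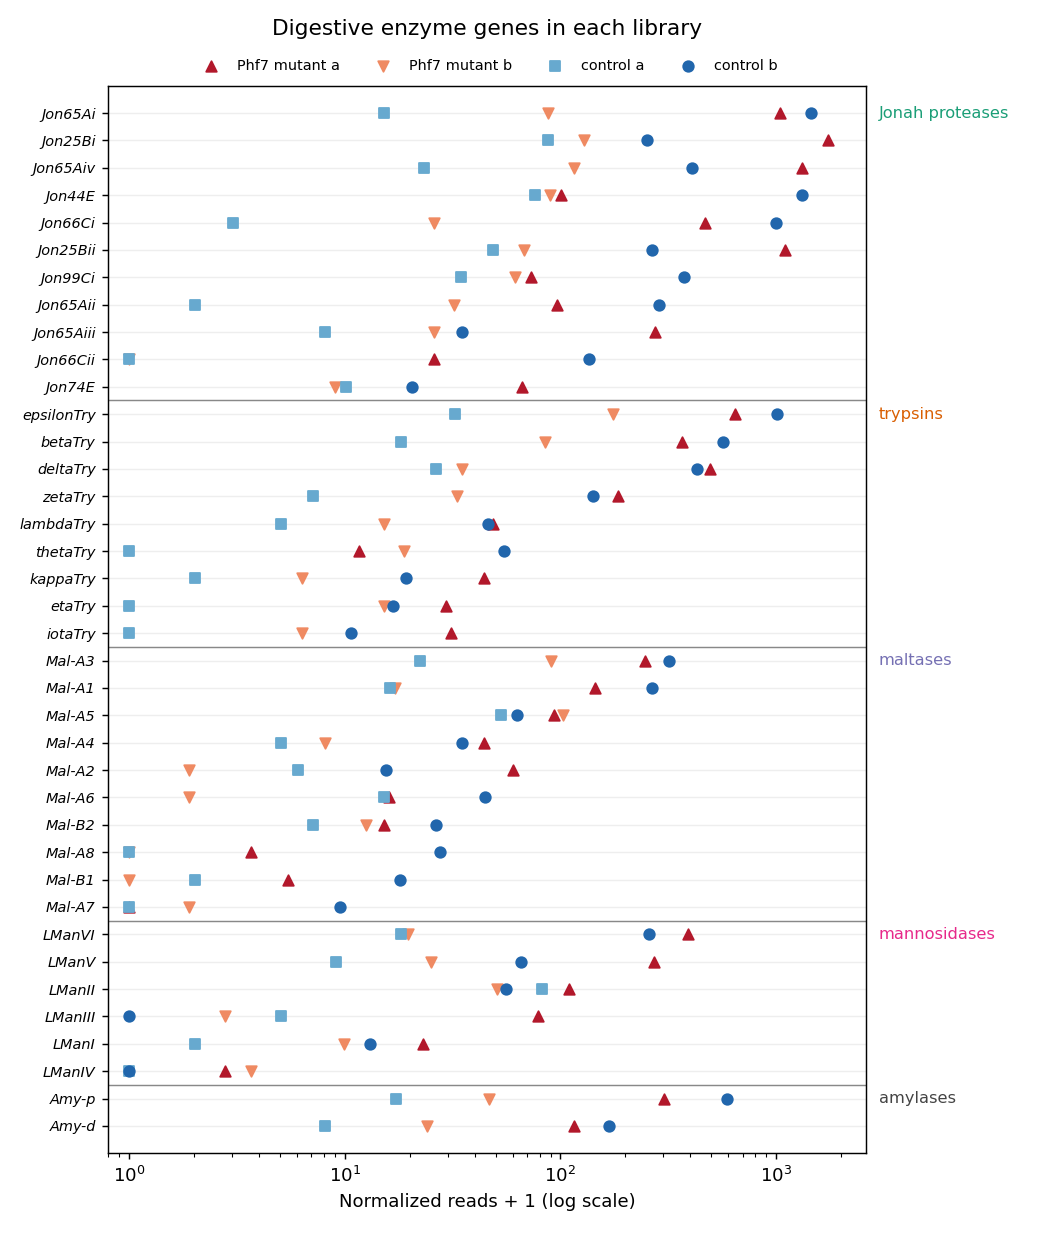
Normalized reads plus 1 (log scale) of the 38 digestive enzyme genes with recovered reads, 1 row per gene, ordered by class and mean, with 1 symbol per library. Mutant a and control b lie to the right of mutant b and control a in most rows, while Mal-A5 is highest in mutant b and LManII is higher in control a than in control b.

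Among the Jonah proteases with recovered reads, Jon65Ai had the highest mean (FBgn0035667, chr3L:6053493-6054443). It had 1174 reads in mutant a and 97 in mutant b, against 14 in control a and 1200 in control b. Normalized for depth, mutant a held 12.0 times the level of mutant b (95% interval 9.78 to 14.96), and control b held 102 times that of control a (60.8 to 188). These intervals, here and below, are exact and cover counting error only. Each genotype therefore had 1 library rich and 1 library poor in Jon65Ai, and the genotypes overlapped. Jon25Bi (FBgn0020906, chr2L:4954279-4955144) had 1969 and 143 reads in mutants a and b, against 85 and 207 in controls a and b. Jon25Bii, its neighbour at 1142 bp, had 1243 and 75 reads in the mutants, against 47 and 219 in the controls. Both were far higher in mutant a than in any other library. Jon65Ai and Jon25Bi have means of 650 and 552, and above a mean of 500 the recovery of reads is less certain, since 5 of 165 decoy values there had a solution by chance.

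Jon65Aiv (FBgn0250815, chr3L:6039155-6040135) had 1495 and 129 reads in mutants a and b, against 22 and 333 in controls a and b, and mutant a again held the highest level. Jon44E (FBgn0001285, chr2R:8691448-8692844) had 112 and 99 reads in the mutants, against 74 and 1087 in the controls. Here control b stood apart and the other libraries lay close together, with a ratio of mutant a to mutant b of 1.12 (95% interval 0.851 to 1.49). Jon99Ci had 81 and 68 reads in the mutants against 33 and 308 in the controls. Control b again stood apart and the mutants lay close together. Control a was lower for Jon99Ci, with a ratio of mutant b to control a of 1.81 (1.18 to 2.83). Its ratio of mutant a to mutant b was 1.18 (0.847 to 1.66), and that of control b to control a was 11.2 (7.78 to 16.5).

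Jon66Ci (FBgn0035886, chr3L:8391540-8392377) had 527 and 28 reads in mutants a and b, against 2 and 822 in controls a and b. Its ratio of control b to control a was 491 (95% interval 136 to 4064). This was the highest point estimate among the tested digestive enzyme genes with reads in both control libraries. The neighbouring Jon66Cii had 28 and 0 reads in the mutants, against 0 and 111 in the controls, so that control b was at least 44.2-fold higher than control a, taking 3 reads per library as the floor. Both genes of the pair were therefore near 0 in control a. Jon65Aii had 108 and 35 reads in the mutants, against 1 and 234 in the controls. Jon65Aiii had 310 and 28 reads in the mutants, against 7 and 28 in the controls. Jon74E, the lowest of the class, had 74 and 9 reads in the mutants, against 9 and 16 in the controls. Jon65Aiii and Jon74E were thus highest in mutant a, and Jon65Aii in control b.

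epsilonTry had the highest mean of the trypsins with recovered reads (FBgn0010425, chr2R:11345237-11346066), with 730 and 195 reads in mutants a and b, against 31 and 830 in controls a and b. The ratio of mutant a to mutant b was 3.72 (95% interval 3.17 to 4.38) and that of control b to control a was 32.0 (22.4 to 47.4). betaTry, which is transcribed away from epsilonTry at a distance of 258 bp, had 412 and 94 reads in the mutants, against 17 and 467 in the controls. The pair shared its order over the 4 libraries, with control b highest and control a lowest. deltaTry had 558 and 38 reads in the mutants, against 25 and 353 in the controls. zetaTry had 208 and 36 reads in the mutants, against 6 and 116 in the controls. In both genes mutant a and control b were close, with ratios of 1.15 (1.01 to 1.32) for deltaTry and 1.31 (1.04 to 1.66) for zetaTry.

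The 5 remaining trypsins were read at low levels. lambdaTry had 54 and 16 reads in mutants a and b, against 4 and 37 in controls a and b. kappaTry, next to it, had 49 and 6 reads in the mutants, against 1 and 15 in the controls. etaTry had 32 and 16 reads in the mutants, against 0 and 13 in the controls. All 3 had their highest normalized level in mutant a and their lowest in control a. iotaTry had 34 and 6 reads in the mutants, against 0 and 8 in the controls. thetaTry had 12 and 20 reads in the mutants, against 0 and 44 in the controls, and was the only trypsin tested that was lower in mutant a than in mutant b (ratio 0.597, 95% interval 0.266 to 1.28, which includes 1). etaTry, iotaTry and thetaTry thus had no read in control a.

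Mal-A3 was the maltase with the highest mean (FBgn0002571, chr2R:8455909-8457892). It had 277 and 100 reads in mutants a and b, against 21 and 261 in controls a and b. Mal-A1 had 162 and 18 reads in the mutants, against 15 and 218 in the controls. Both were highest in control b and lowest in control a. Mal-A4 had 49 and 8 reads in the mutants, against 4 and 28 in the controls. Mal-A2 had 67 and 1 reads in the mutants, against 5 and 12 in the controls, with mutant b lowest. Mal-A6 had 17 and 1 reads in the mutants, against 14 and 36 in the controls, again with mutant b lowest. Mal-B2 had 16 and 13 reads in the mutants, against 6 and 21 in the controls.

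Mal-A5 (FBgn0050359, chr2R:8462753-8465092) departed from the other maltases. It had 104 and 114 reads in mutants a and b, against 51 and 51 in controls a and b. The ratio of mutant a to mutant b was 0.907 (95% interval 0.689 to 1.19) and that of control b to control a was 1.20 (0.795 to 1.80), so that both intervals included 1. Mal-A6 starts 65 bp beyond the end of Mal-A5 on the same strand and did not have this form. Below the minimum for testing, Mal-A8 had 3 and 0 reads in the mutants, against 0 and 22 in the controls, and Mal-B1 had 5 and 0 reads in the mutants, against 1 and 14 in the controls. Mal-A7 had 0 and 1 reads in the mutants, against 0 and 7 in the controls. Control b held the most reads of all 3.

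LManVI had the highest mean of the mannosidases (FBgn0032069, chr2L:8777661-8781252), with 441 and 21 reads in mutants a and b, against 17 and 211 in controls a and b. LManV, 1397 bp away on the same strand, had 307 and 27 reads in the mutants, against 8 and 53 in the controls. In both genes mutant a was highest, control b followed, and mutant b and control a were low. LManIII (FBgn0032066, chr2L:8765273-8768710) had 88 and 2 reads in the mutants, against 4 and 0 in the controls. It was read almost only in mutant a, which was at least 21.4-fold higher than control b at a floor of 3 reads per library. LManIV, which lies between LManIII and LManV, had 2 and 3 reads in the mutants, against 0 and 0 in the controls, and was not tested.

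The other pair of mannosidases lies elsewhere on 2L. LManI had 25 and 10 reads in mutants a and b, against 1 and 10 in controls a and b. LManII (FBgn0027611, chr2L:10457658-10462472) had 123 and 56 reads in the mutants, against 80 and 45 in the controls. Its levels spanned the narrowest fold range of the tested mannosidases, and control b was lower than control a (ratio 0.673, 95% interval 0.456 to 0.981). All 5 tested mannosidases were highest in mutant a, and both amylase genes were highest in control b. Amy-p (FBgn0000079, chr2R:17118636-17120303) had 341 and 51 reads in the mutants, against 16 and 487 in the controls. Amy-d had 130 and 26 reads in the mutants, against 7 and 137 in the controls. Control a was lowest for both.

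The 2 libraries of 1 genotype differed widely for these genes. The 38 genes with recovered reads together had 11367 reads in mutant a and 1590 in mutant b, against 628 in control a and 8061 in control b, which were 0.533%, 0.0775%, 0.0341% and 0.525% of the recovered reads of those libraries. After normalization the sum in mutant a was 7.11 times that in mutant b, and the sum in control b was 15.3 times that in control a. Of the 34 genes tested, 32 were higher in mutant a than in mutant b, with a median log2 ratio of 2.60, against -0.01 over the 7653 genes tested in all. On the log2(value + 1) scale 22 of the 34 were over 4-fold higher in mutant a, while 7.72% of all genes tested were. The exceptions were Mal-A5 and thetaTry. Likewise 32 of 34 were higher in control b than in control a, with a median of 3.63 and 26 over 4-fold higher, against a background of 8.92%. There the exceptions were LManII and LManIII. These are single libraries set side by side, so no test was possible.

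Mutant a was the highest library for 18 of the 34 genes, control b for 15, mutant b for Mal-A5 alone and control a for none. Over all genes tested these shares were 29.0%, 22.4%, 20.7% and 27.96%. Control a alone was lowest for 28 of the 34 (82.4%), as it was for 27.5% of all genes tested. Mutant a and control b both stood above mutant b and control a for 30 of 34 genes (88.2%), a pattern that 27.0% of all genes tested showed.

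**Figure D2:**
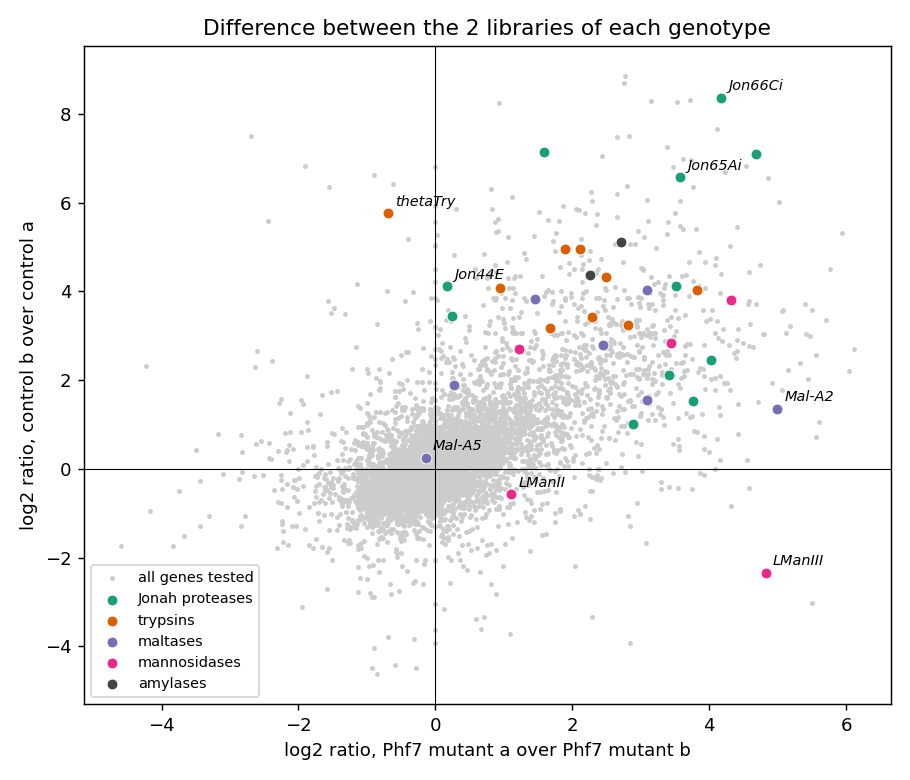
The log2 ratio of mutant a over mutant b (x axis) and of control b over control a (y axis) for the 7653 genes tested (grey) and the 34 digestive enzyme genes (coloured by class), both on the log2(value + 1) scale. Most coloured points lie in the upper right, with medians of 2.60 and 3.63, and the labelled genes include the exceptions Mal-A5, thetaTry, LManII and LManIII.

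The classes, summed over their genes with recovered reads, did not share these differences evenly. These sums leave out 5 Jonah genes and alphaTry, the most abundant of their classes, which have no value per library. Between the control libraries the summed trypsins differed 26.8-fold, the amylases 32.4-fold, the Jonah proteases 18.6-fold, the maltases 6.85-fold and the mannosidases 3.47-fold, each higher in control b. Between the mutant libraries the Jonah proteases differed 9.96-fold, the mannosidases 8.24-fold, the amylases 6.08-fold, the trypsins 4.86-fold and the maltases 2.72-fold, each higher in mutant a. By sums the mannosidases thus came last between the controls and second between the mutants, where LManII held 80 of their 110 reads in control a. By the median log2 ratio over tested genes the maltases were last between the controls, at 1.90 against 2.71 for the mannosidases.

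Mutant a and control b, the libraries rich in the genes with recovered reads, had nearly equal sums (ratio 1.03) made up of unequal parts. Of the 34 genes, 19 were higher in mutant a and 15 lower, with a median log2 ratio of 0.27. Over all genes tested 51.1% were higher in mutant a than in control b. The counting interval lay above 1 for 15 genes and below 1 for 14, and it included 1 for 5. Intervals were not counted over all genes tested, so these counts have no background to be read against. On the log2(value + 1) scale 5 genes were more than 4-fold higher in mutant a, against a background of 2.61%, and 4 genes were more than 4-fold lower, against 2.98%. By plain ratios of normalized reads, which for low genes exceed those on that scale, Jon65Aiii was 8.07-fold higher in mutant a (95% interval 5.48 to 12.3), Jon25Bi 6.94-fold (6.01 to 8.04) and LManV 4.22-fold (3.15 to 5.77). Jon44E had 0.0751 times the level of control b (0.0613 to 0.0913), Jon66Cii 0.184 times (0.117 to 0.280), Jon99Ci 0.192 times (0.148 to 0.246) and thetaTry 0.199 times (0.0956 to 0.383). All 5 mannosidases tested were higher in mutant a than in control b, both amylases were lower, and each other class held genes of both kinds.

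**Figure D3:**
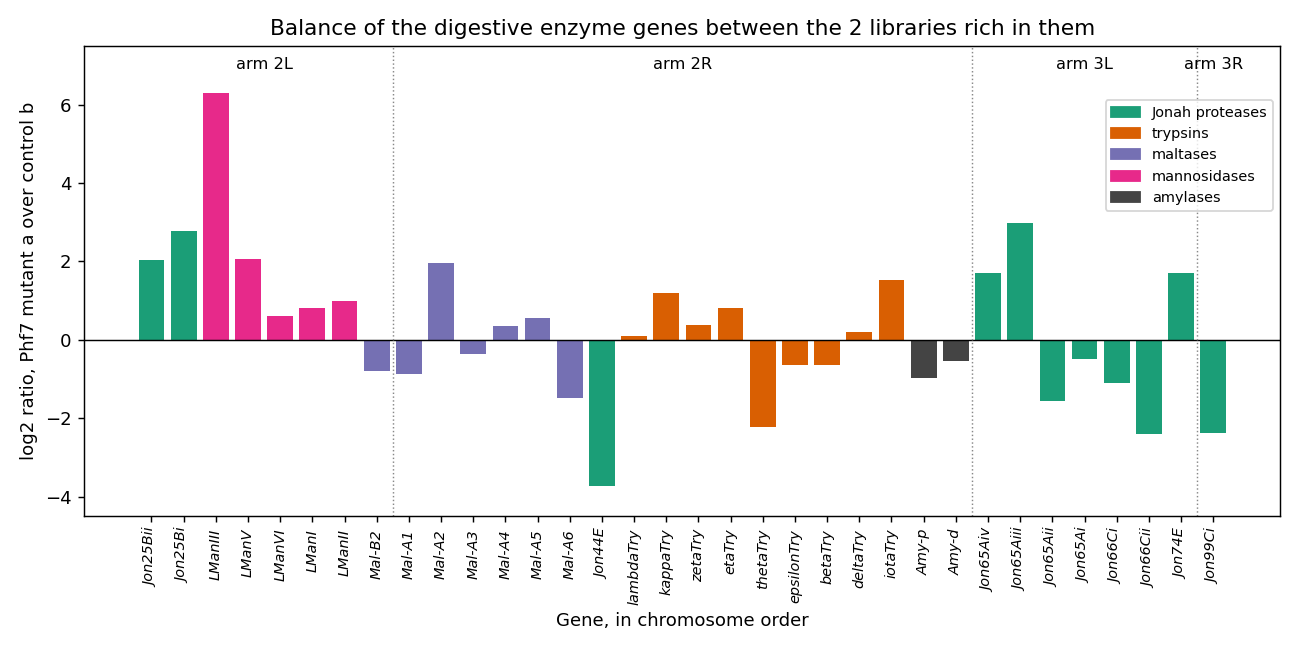
The log2 ratio of mutant a over control b, on the log2(value + 1) scale, for the 34 digestive enzyme genes in chromosome order, coloured by class, with 1 bar per gene from single libraries and so without an error bar. Bars run from -3.72 for Jon44E to 6.30 for LManIII, and neighbouring genes differ in sign within the Jon65A, Mal-A and trypsin clusters.

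Neighbours in a cluster could lean in opposite directions. Within the Jon65A cluster Jon65Aiv and Jon65Aiii were higher in mutant a than in control b, while Jon65Aii, which lies 630 bp from Jon65Aiii on the same strand, had 0.336 times the level of control b (95% interval 0.265 to 0.424). Mal-A2 was 4.07-fold higher in mutant a (2.18 to 8.27), and the facing Mal-A3 had 0.774 times the level of control b (0.651 to 0.920). Next to thetaTry, etaTry had a ratio of 1.79 (0.916 to 3.73). The poorer libraries differed as well, since 28 genes were higher in mutant b than in control a and 5 were lower, with Jon66Cii at 0 in both. The counting interval lay above 1 for 20 of the 34 and below 1 for 2, LManII and Mal-A6. Over all genes tested 50.3% were higher in mutant b than in control a, and intervals were not counted there. In this pair epsilonTry was 5.52-fold higher in mutant b (3.76 to 8.34) and Jon65Ai 6.07-fold (3.45 to 11.5), and the summed level was 2.22-fold higher.

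Between the genotypes, none of the digestive enzyme genes passed the test. Phf7, the mutated gene, did not pass either (adjusted p = 0.537 by limma). A gene that is not called is therefore not shown to be unchanged. In limma on log2(normalized value + 1), with Benjamini-Hochberg adjustment over all 7653 genes tested, 0 of the 34 genes had an adjusted p under 0.05, as had 0 of all genes (0%), and the adjusted p of the 34 ranged from 0.832 to 0.998. At an unadjusted p under 0.05 there was 1 of 34, beside 449 of all genes (5.87%). This was Mal-A5, at 96.8 normalized reads on average in mutants and 56.9 in controls, a log2 difference of 0.76 (SE 0.264, adjusted p = 0.832 by limma), singled out here after its values were seen. Mal-A5 was also the only 1 of the 34 with both mutant values above both control values, while 15.4% of all genes tested had that order. None had both mutant values below both control values, against 17.5% of all genes tested. Counts of both kinds were thus below the background.

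By the mean of log2 values, 29 of the 34 genes were higher in mutants and 5 lower, with a median difference of 0.83 against 0.01 over all genes tested. The differences ran from -2.24 for Mal-A6 to 2.72 for LManIII (SE 1.97, adjusted p = 0.985 by limma). They carried a median SE of 1.69, against 0.356 over all genes tested. The direction turned with single libraries. Without mutant a the median difference was -0.24 and without control a it was -0.91, while without mutant b it was 2.09 and without control b it was 2.60, and the number of genes with a higher mean in mutants was then 13, 11, 31 and 32.

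The leading gene of each class showed the same. Jon65Ai differed by 1.02 (SE 2.74), epsilonTry by 0.89 (SE 1.95), Mal-A3 by 0.82 (SE 1.52), LManVI by 0.36 (SE 2.12) and Amy-p by 0.23 (SE 2.12), each on the log2 scale as mutant minus control. Each of these 5 differences turned negative without control a, where Jon65Ai came to -2.27, epsilonTry to -1.59, Mal-A3 to -1.09, LManVI to -1.55 and Amy-p to -2.32. The summed level of the 38 genes differed by 0.60 on the log2 scale (exact permutation test over the 4 libraries, 2-sided p = 0.667, where 0.333 is the smallest value that 2 against 2 can give). The corresponding p was 0.667 for the Jonah proteases and 1 for each of the other classes.

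Other genes of the midgut and of digestion, taken from a list of 40 that the symbols above leave out, split along the same lines in part. The list also holds SPE, an immune protease kept in it as a non-digestive serine protease. Of the 40, 38 were in the table, 34 were detected, 23 were tested, and 0 passed the test between the genotypes. Among the tested ones 20 of 23 were higher in mutant a than in mutant b and 17 of 23 were higher in control b than in control a, with medians of 0.88 and 1.77. The 29 with recovered reads summed to 3861 and 1508 normalized reads in mutants a and b, against 1495 and 4065 in controls a and b. The 5 genes of the list with means above 1000 have no value per library and are not in these sums. They are Peritrophin-15a with an authors' mean of 6680, Cp1 with 2980, Peritrophin-15b with 2282, cathD with 1160 and Npc2f with 1046. Of the genes with recovered reads, the digestive lysozyme genes LysD and LysE were among the most abundant. LysD had 821 and 101 reads in the mutants, against 29 and 580 in the controls, and LysE had 558 and 52 reads in the mutants, against 11 and 390 in the controls. mex1, a midgut marker, had 365 and 70 reads in the mutants, against 29 and 289 in the controls. Myo31DF, an unconventional myosin that is also made outside the gut, had 660 and 661 reads in the mutants, against 623 and 438 in the controls. Myo61F, another such myosin, had 400 and 219 reads in the mutants, against 257 and 286 in the controls. LysD, LysE and mex1 thus split the libraries as the digestive enzyme genes did, and Myo31DF did not. Myo61F split them the same way by a smaller fold. It had 354 and 195 normalized reads in mutants a and b, against 261 and 347 in controls a and b.

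Of the 6 midgut markers that are no digestive enzymes, all were detected, and their summed level was 1310 and 853 normalized reads in mutants a and b, against 928 and 1304 in controls a and b, most of it from Myo31DF and Myo61F. Of the 4 tested, 3 were higher in mutant a than in mutant b and 3 in control b than in control a, with median log2 ratios of 1.61 and 1.97. GATAe, a transcription factor of the endoderm, had 37 and 6 reads in mutants a and b, against 1 and 43 in controls a and b. Markers of muscle and neurons moved with the same libraries. All 12 muscle markers were higher in mutant a than in mutant b, all 12 were higher in control b than in control a. Their sums came to 4956 and 1253 normalized reads in the mutants, against 1059 and 3613 in the controls. Mlc2, a myosin light chain, had 1912 and 438 reads in the mutants, against 216 and 845 in the controls. Act57B, a muscle actin, had 632 and 103 reads in the mutants, against 125 and 548 in the controls. All 9 neuronal markers had this order too, with sums of 5104 and 1442 in the mutants, against 972 and 2761 in the controls. nrv3, a sodium pump subunit of neurons, had 1638 and 375 reads in the mutants, against 126 and 635 in the controls. elav, an RNA-binding protein of neurons, had 1078 and 469 reads in the mutants, against 348 and 506 in the controls. Within each genotype the fold between the libraries was smaller for the muscle list (3.96 and 3.41) and the neuronal list (3.54 and 2.84) than for the digestive enzyme genes (7.11 and 15.3) by sums, which a few abundant genes carry. By the median log2 ratio over tested genes the order between the mutants differed, with 2.60 for the digestive enzyme genes, 2.84 for neurons and 2.32 for muscle. Between the controls the medians were 3.63 for the digestive enzyme genes, 2.15 for neurons and 1.75 for muscle.

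Markers of germ cells did not follow this split. Those with recovered reads summed to 3120 and 3279 normalized reads in mutants a and b, against 2890 and 2599 in controls a and b. aub, a piRNA pathway protein, had 1108 and 1047 reads in the mutants, against 833 and 613 in the controls, and nos, a translational repressor, had 786 and 767 reads in the mutants, against 443 and 415 in the controls. The somatic gonad markers with recovered reads summed to 665 and 470 in the mutants, against 443 and 645 in the controls, with folds of 1.41 (mutant a over mutant b) and 1.46 (control b over control a). Of this list Abd-B, a Hox gene of the posterior, had 637 and 402 reads in the mutants, against 311 and 438 in the controls, and Six4 had 74 and 65 reads in the mutants, against 53 and 61 in the controls. eya, the other tested gene of this list, had the opposite order, with 33 and 58 reads in the mutants, against 71 and 30 in the controls, and most of the summed reads were those of Abd-B.

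Lists of further tissues were mixed. The hemocyte list summed to 341 and 123 normalized reads in mutants a and b, against 180 and 340 in controls a and b, with Hml at 136 and 33 reads in the mutants, against 44 and 136 in the controls, and Pxn at 155 and 37 in the mutants, against 44 and 78 in the controls. The Malpighian tubule list, with 3 genes recovered, summed to 146 and 41.9 in the mutants, against 28.5 and 273 in the controls. Its genes differed, since ct had 163 and 28 reads in the mutants, against 26 and 69 in the controls, and the potassium channel gene Irk2 had 2 and 19 reads in the mutants, against 0 and 149 in the controls. The fat body list summed to 330 and 292 in the mutants, against 300 and 480 in the controls, nearly all from Apoltp with 370 and 328 reads in the mutants, against 294 and 390 in the controls. Lsp1beta had 3 and 0 reads in the mutants, against 1 and 2 in the controls, and Fbp1 was at 0. The cuticle list summed to 154 and 119 in the mutants, against 368 and 769 in the controls, and was higher in both controls than in both mutants. Most of that difference came from Cpr67Fb and TwdlT. Cpr67Fb had 37 and 33 reads in the mutants, against 228 and 326 in the controls. TwdlT had 5 and 0 in the mutants, against 18 and 105 in the controls. The genotypes overlapped for serp, with 63 and 44 in the mutants, against 53 and 85 in the controls. The salivary gland list summed to 989 and 867 in the mutants, against 901 and 736 in the controls, with sano at 522 and 528 reads in the mutants, against 483 and 238 in the controls, and CrebA at 524 and 431 in the mutants, against 373 and 293 in the controls. fkh, a tested gene of this list that adds little to the sum, had 45 and 14 reads in the mutants, against 31 and 74 in the controls. Mutant a and control b stood above mutant b and control a, as for most digestive enzyme genes, but mutant b was lowest. Of the tested genes in all of these marker lists, 0 passed the test between the genotypes. The part of other tissues in the levels of the digestive enzyme genes was not tested, and in bulk samples a different number of cells of a type and a different amount of RNA per cell cannot be told apart.

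**Figure D4:**
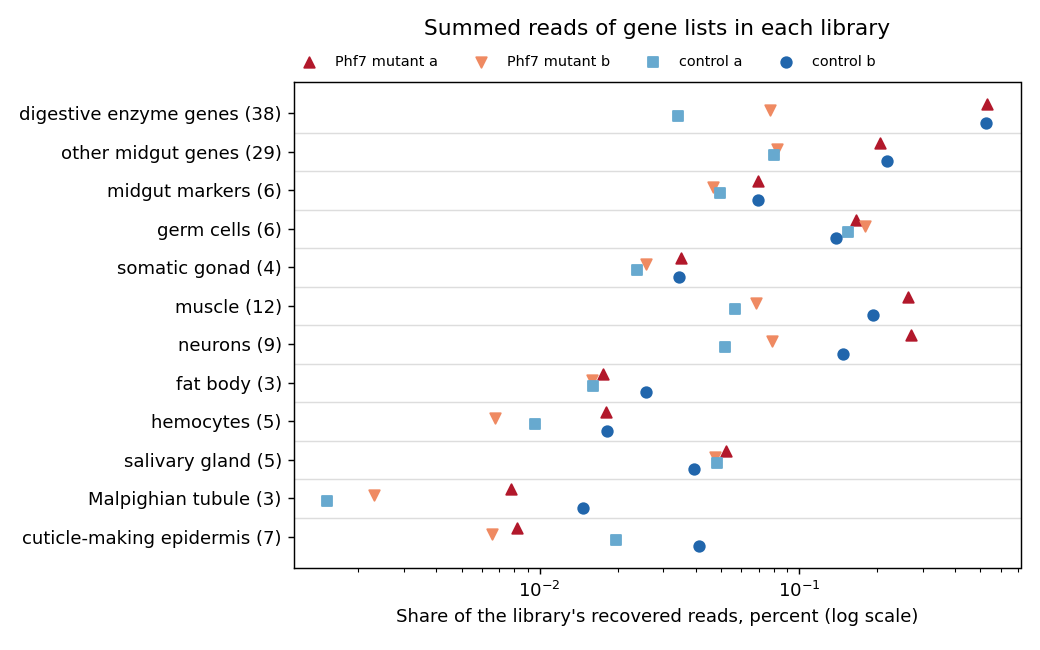
Share of each library's recovered reads, in percent on a log scale, held by the digestive enzyme genes, the other midgut genes and the marker lists, with the number of genes summed in brackets and 1 symbol per library. The digestive enzyme genes span 0.0341% to 0.533%, with mutant a and control b on the right, and the germ cell list spans 0.139% to 0.179%.

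Some of these reads are uncertain in origin. Jon44E overlaps CG8586 by 49 bp, Mal-A1 overlaps Cyp4e1 by 82 bp, deltaTry overlaps CG13202 by 15 bp and Mal-A8 overlaps mtt by 6 bp, each on the opposite strand. Mal-B1 and Mal-B2 lie within the span of Pde1c on the opposite strand, over 1944 and 2924 bp. The strand setting of the counting is not given in the sources used here, so reads of these partners cannot be told apart. gammaTry and deltaTry, Amy-p and Amy-d, and the Jon99C and Jon99F genes are related copies, and how alike their sequences are was not measured here. How reads that match several copies were counted is not given either.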

How the data were processed

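RNA of sorted embryonic gonads was measured in 2 Phf7 mutant and 2 control samples, called separate biological replicates by the study. The authors sequenced 50 bp single-end 3′-end reads, aligned them to dm6 by HISAT2, tallied reads per gene in htseq-count and compared genotypes by DESeq2, with no versions given in the sources used here. The deposited mean normalized count is a signal averaged over the 4 libraries. The authors' deposited comparison columns (a log2 ratio of control to mutant with standard error, test score and p-values) were not used, with a single exception stated below.

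A mean count is a sum of 4 whole numbers of reads, each times the value of a single read there (0.221 and 0.223 for mutants a and b, 0.254 and 0.304 for controls a and b). These values were first taken from the 372 genes with a single read in all. They were then refined by least squares on genes of lower mean with exactly 1 solution. Those genes are also among the ones searched below. For means up to 1000, sets of whole numbers that equal the printed mean to its last digit were searched. All 11208 genes searched had exactly 1 solution, while 6 of 1499 decoy values (0.400%) had any. Of the decoys above a mean of 500, 5 of 165 had a solution. The recovered genes hold 17.4% of the mean total. The sign of the deposited log2 ratio at the single-read genes, and nothing else of it, gave each library its genotype. Size factors were 1.13, 1.12, 0.984 and 0.823 for mutant a, mutant b, control a and control b.

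Genes with a mean of at least 10 were tested with limma 3.58.1 (R 4.3.3) on log2(normalized value + 1), mutant minus control. The fit was also run on simulated reads, in which libraries of 1 genotype differed by random spread alone. That check does not cover genes that differ between such libraries as widely as these do. A fold change on this scale understates low genes. The rule for naming took Phf7 and every digestive enzyme gene with a mean of at least 10 and recovered reads. Of those above 1000 the authors' mean was taken. From each further list it took the most abundant genes among those with recovered reads. The digestive enzyme genes and all lists were chosen with earlier results of these data known. Alternatives were other pseudocounts, filters and scalings, limma with trend, limma-voom and leaving out each library. Other columns of comparisons were left out, and the sequences of these genes are not used here.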

Additional observations from a re-analysis of the deposited data

How the results depend on the processing

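Between the genotypes, 0 of the digestive enzyme genes passed an adjusted p of 0.05 in limma under each of 13 alternatives. Over all genes tested, 6 were called with a pseudocount of 0.25 and 2 at a mean normalized count of at least 50, and 0 under the other 11. Leaving out 1 library left the remaining library of that genotype to be assumed as variable as the others, and it moved the directions. The summed level then differed by -1.37 to 2.57 on the log2 scale, and the median difference of the tested genes ran from -0.91 to 2.60. Single genes ran from -2.27 to 4.31 for Jon65Ai, from -1.59 to 3.37 for epsilonTry, from -1.09 to 2.74 for Mal-A3, from -1.80 to 2.51 for LManVI and from -2.32 to 2.78 for Amy-p. Mal-A5 kept its direction, from 0.63 to 0.89. At a mean of at least 50, 18 of 21 tested genes had a higher mean in mutants. The medians between the libraries of 1 genotype stayed at 2.24 to 2.71 (mutant a over mutant b) and 2.97 to 4.03 (control b over control a) under 7 alternatives of pseudocount, filter and scaling. No paired analysis was possible because the recovered libraries carry no replicate numbers. Genes with means above 1000 have no value per library, so Jon25Biii, the Jon99C and Jon99F genes other than Jon99Ci, and alphaTry could not be compared. Counts under about 10 reads, as for most of the low trypsins in control a, limit single ratios.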
